A study of Mus musculus with 3 samples.

Results

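The 667 regions described here are clusters of ETV5 peaks that lie away from marked promoters in alveolar type II (AT2) cells, the cells of the lung alveolus that make surfactant and renew the alveolar lining. A cluster, called a chain below, is a run of at least 3 ETV5 peaks in which each summit lies at most 5 kb from the next and every peak lies more than 5 kb from every peak of H3K4me3, the histone mark of active promoters. Of 31149 ETV5 peaks on chromosomes 1 to 19 and X, 11620 were distal in this sense, and 2535 of those fell in the chains, which is 21.8% of the distal peaks (95% interval 21.1 to 22.6%) and 8.14% of all. The other distal peaks were 2516 that formed 1258 pairs and 6569 isolated peaks.

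The study holds 1 ETV5 library, 1 H3K4me3 library and 1 input library (sheared chromatin without antibody), all from AT2 cells of C57BL/6 mice aged 10 to 12 weeks, with no genotype or treatment named. The labels do not say whether cells of several animals were pooled. Peak lists were available for the ETV5 and the H3K4me3 library. With 1 library per antibody no value has a replicate check, so no test was run, and the intervals below (exact 95% Clopper-Pearson for shares, exact Poisson for pileups, order statistics for medians) cover counting error only.

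ETV5 belongs to the PEA3 subfamily of ETS transcription factors, which bind DNA around a GGAA core and act downstream of receptor tyrosine kinases, RAS and ERK. In the lung, ETV5 is known as a target of FGF signalling in the distal epithelium and as a factor that AT2 cells need to keep their identity. Groups of neighbouring binding sites away from promoters are a common feature of enhancers near genes that define a cell type. A peak list gives binding of the antibody's target or of what lies near it in fixed chromatin, and says nothing of the activity of a region or of the gene it acts on.

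In some chains an ETV5 summit fell in the 300 bases around an annotated start site, with no H3K4me3 within 5 kb of the peak, and 5 of these sites are shown to let the DNA under such peaks be seen. Each line gives the 250 bases before the start, 5′ to 3′ on the strand of the gene, from the RefSeq promoter table of GRCm38.p6, with each GGAA or its complement TTCC in capitals. The site in Ppt2, a thioesterase gene (chr17:34628017-34628266, minus strand), had the highest ETV5 pileup of them, 133 fragments, with its summit 40 bases after the start and so outside the printed stretch, which the peak covers. Gm13056 (chr4:141278189-141278438, plus strand) lies in the chain with the most peaks, near Arhgef19. Gm51643 (chr1:131112545-131112794, plus strand), in a chain near Mapkapk2, is the site with the full ETS sequence CCGGAAGT, which starts 50 bases before the start site. Those of Lmx1b (chr2:33641099-33641348, minus strand) and Runx3 (chr4:135152295-135152544, plus strand), which encode developmental transcription factors, are rich in CpG and poor in the ETS core.
Ppt2: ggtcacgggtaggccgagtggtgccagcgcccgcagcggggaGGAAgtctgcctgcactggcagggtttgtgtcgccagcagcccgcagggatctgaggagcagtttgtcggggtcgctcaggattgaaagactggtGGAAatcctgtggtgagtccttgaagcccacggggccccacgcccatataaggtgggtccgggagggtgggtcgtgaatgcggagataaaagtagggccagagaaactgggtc
Gm13056: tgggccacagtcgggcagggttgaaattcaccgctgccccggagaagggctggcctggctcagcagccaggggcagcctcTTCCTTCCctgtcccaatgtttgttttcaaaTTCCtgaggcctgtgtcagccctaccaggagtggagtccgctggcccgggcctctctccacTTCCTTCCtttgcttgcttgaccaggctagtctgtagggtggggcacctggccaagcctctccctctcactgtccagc
Gm51643: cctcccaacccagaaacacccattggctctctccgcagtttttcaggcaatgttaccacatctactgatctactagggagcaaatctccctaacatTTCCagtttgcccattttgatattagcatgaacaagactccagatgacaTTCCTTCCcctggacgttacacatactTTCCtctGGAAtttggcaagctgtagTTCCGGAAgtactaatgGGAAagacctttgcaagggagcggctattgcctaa
Lmx1b: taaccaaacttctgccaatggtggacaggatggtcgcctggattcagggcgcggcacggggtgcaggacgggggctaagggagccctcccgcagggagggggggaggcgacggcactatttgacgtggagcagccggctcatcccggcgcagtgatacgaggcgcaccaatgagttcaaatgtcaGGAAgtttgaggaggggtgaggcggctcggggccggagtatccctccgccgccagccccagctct
Runx3: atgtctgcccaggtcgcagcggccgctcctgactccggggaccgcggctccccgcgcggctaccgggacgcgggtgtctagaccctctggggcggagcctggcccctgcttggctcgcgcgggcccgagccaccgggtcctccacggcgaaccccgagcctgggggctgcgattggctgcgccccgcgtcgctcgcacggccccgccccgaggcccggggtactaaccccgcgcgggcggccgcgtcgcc
The printed stretches held 2 copies of the core for Ppt2, 5 for Gm13056, 8 for Gm51643, 1 for Lmx1b and 0 for Runx3. The Runx3 stretch held 38 CpG, against 4 in that of Gm51643, and its summit had a pileup of 22.

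The peaks of a chain were mostly low and lay a median of over 1 kb apart. Pileup, the number of ETV5 fragments that overlap a summit, had a median of 10 in chain peaks, and 56.1% of the peaks reached no more than 10. Of the chains, 392 had 3 peaks, 147 had 4, 62 had 5 and 66 had 6 or more, up to 14. Neighbouring summits lay a median of 1343.5 bp apart (quartiles 739 and 2522 bp), and 2 of 1868 gaps were shorter than the fragment length of 203 bp that the peak caller used. Chains spanned a median of 4256 bp from first to last summit (interval 4011 to 4553 bp), from 730 to 26192 bp, of which peaks covered a median of 1287 bp. The summed pileup had a median of 40 (interval 38 to 41, quartiles 31 and 55) and ranged from 19 to 513. The chains were chosen by the positions of ETV5 summits and H3K4me3 peaks, so these values follow in part from the rule and are given as a description.

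In most chains the highest peak held less than 50% of the summed pileup. It had a median pileup of 15 and a median fold enrichment over local background of 7.45, against 9 and 4.93 for the other peaks of the chains, a gap that follows at least in part from taking the highest of several peaks. Its share of the summed pileup had a median of 40%, from 14.4 to 92.7%, and reached 50% in 142 chains. In the 359 chains of 3 without a tie, the highest peak was the middle one in 35.4% (interval 30.4 to 40.6%).

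**Figure D1:**
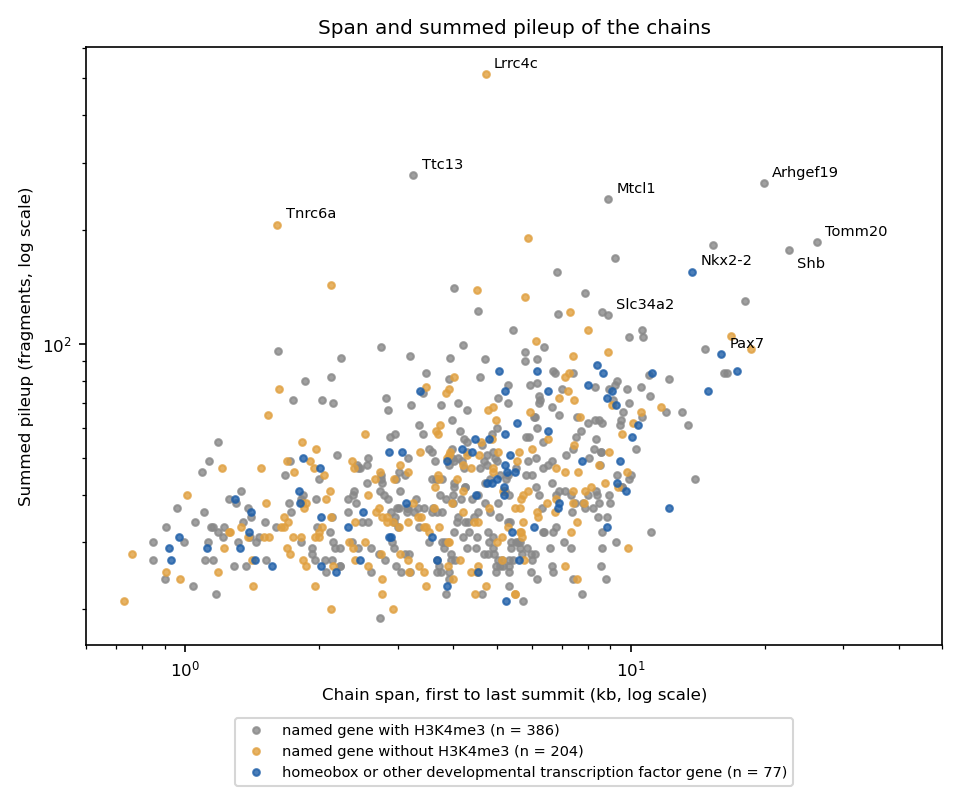
Each point is 1 of the 667 chains, with its span in kb on the x axis and its summed pileup in fragments on the y axis, both on log scales; colours give the gene named for the chain (with H3K4me3, without it, or of a developmental transcription factor family). Most chains lie near the medians of 4256 bp and 40 fragments. Ttc13 and Tnrc6a lie high at spans below the median, and Lrrc4c lies highest at a span of 4722 bp. Arhgef19, Shb and Tomm20 lie at the long end.

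Taken singly, chain peaks were about as high as other distal peaks. Chain peaks had a median fold enrichment of 5.37, pair peaks 5.34, isolated distal peaks 5.33 and peaks within 5 kb of H3K4me3 5.19, with pileups of 10, 10, 9 and 9. ETV5 peaks inside H3K4me3 peaks stood apart at 11.1-fold and a pileup of 23. Of chain peaks, 8.56% had a fold of 10 or more (interval 7.50 to 9.72%), as did 8.82% of pair peaks, 7.29% of isolated peaks (interval 6.67 to 7.95%) and 55.0% of peaks inside H3K4me3. Chain peaks were somewhat wider, with a median of 307 bp against 289.5 bp in pairs and 267 bp in isolated peaks. Values on both sides of each limit were alike: 129 neighbouring distal summits lay 4.5 to 5 kb apart and 119 lay 5 to 5.5 kb apart, and the 80 chain peaks 5 to 6 kb from H3K4me3 had a median pileup of 10, as did the 527 peaks just too close to it, at 4 to 5 kb.

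**Figure D2:**
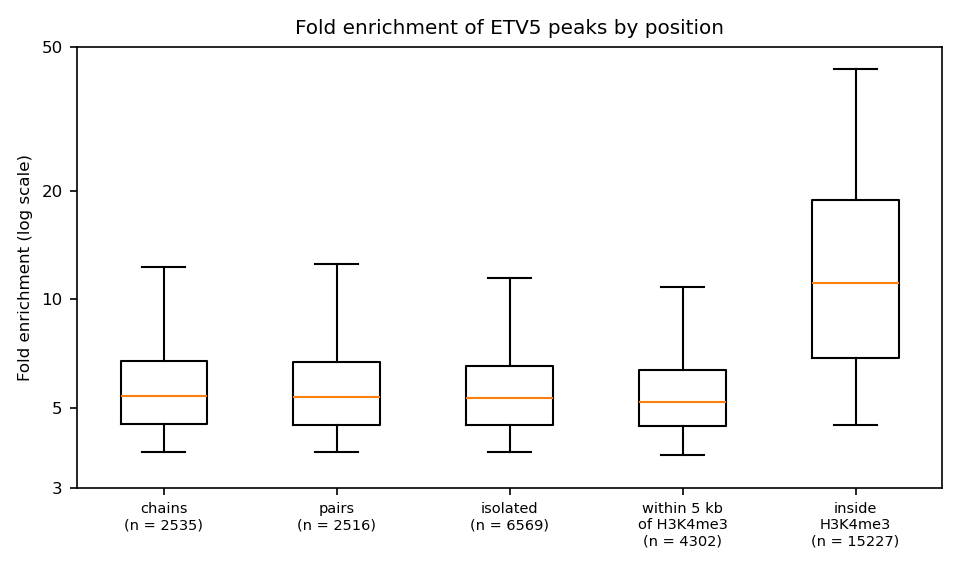
Fold enrichment of ETV5 peaks, as deposited by the authors, on a log scale for 5 groups of peaks by position; boxes span the quartiles, the line is the median and whiskers reach from the 5th to the 95th percentile. The 4 groups outside H3K4me3 have medians from 5.19 to 5.37, and the peaks inside H3K4me3 have a median of 11.1.

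Chains lay in and close to genes more than isolated peaks did. The highest summit was inside a protein-coding gene in 474 chains (71.1%, interval 67.5 to 74.5%), against 66.3% of pairs and 62.4% of isolated peaks (interval 61.2 to 63.6%). The genes that held chains had a median length of 45901 bp, shorter than the 70435.5 bp of genes that held isolated peaks, while all protein-coding genes had a median of 17329 bp. Between genes, the distance to the nearest gene had a median of 9976 bp for chains and 19564 bp for isolated peaks. The highest summit lay within 1 kb of an annotated start site in 14.5% of chains (interval 11.9 to 17.5%, of 653 with start sites in the table), 14.6% of pairs and 9.14% of isolated peaks. Inside genes the highest summit was spread along the whole length, at a median of 51.7% of the way from start to end. Exons and introns could not be told apart with the tables used.

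The gene named for a chain is the protein-coding gene that holds its highest summit or else lies nearest to it, which need not be the gene it acts on. By this rule 612 different genes were named, which is 2.83% of the 21631 protein-coding genes. That share takes no account of gene length, and genes that held chains had a median of 45901 bp against 17329 bp for all. Of the chains, 392 (58.8%, interval 54.9 to 62.5%) had a named gene with an H3K4me3 peak within 1 kb of one of its ends, against 65.3% of isolated peaks (interval 64.2 to 66.5%) and 52.7% of all protein-coding genes. The remaining 275 chains had a gene without the mark, and 46.3% of those with start sites in the table had a summit within 1 kb of a start site, against 13.8% where the gene was marked. The rule leaves out every peak within 5 kb of H3K4me3, and with it most starts of marked genes, so this contrast follows in large part from the choice of members. The summed pileup was nearly the same in both sets, with medians of 39 and 40.

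Some genes collected several chains. Gse1 had 7 along its 352883 bp on chromosome 8, with 35 peaks in all and summed pileups of 97, 74, 66, 64, 50, 29 and 28. Tns1, which encodes the focal adhesion protein tensin 1, had 4, with sums of 76, 44, 43 and 28. Irf2bp2, a transcriptional corepressor gene, had 3 outside the gene, with sums of 60, 45 and 32. The neighbouring chains of these genes were separated by gaps of over 5 kb, so each was counted on its own, and 160 chains (24.0%) had another chain within 50 kb.

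The distribution over chromosomes was uneven. On chromosome 4 chains held 28.7% of distal peaks and on chromosome 10 28.6%, while on chromosome 16, the lowest autosome, they held 13.5%. The X chromosome had 1 chain, in Asmt, with 3 of 98 distal peaks (3.06%, interval 0.636 to 8.69%).

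The chains with the largest summed pileup were of 3 shapes. The first was a single tall peak with low neighbours. In Ttc13 (chr8:124688423-124692893) the pileups were 16, 12 and 250 in order along the chromosome, and the last of them had the highest fold of any chain peak, 112. In Tnrc6a, which encodes a scaffold of microRNA silencing (chr7:123096915-123098972), the pileups were 8, 191 and 7, with a fold of 89.8 for the middle one. Mtcl1, which encodes a microtubule crosslinking protein (chr17:66349144-66358969), had 8, 8, 28, 11, 11 and 175, and Ppt2 (chr17:34626285-34632347) had 8, 12, 133, 8, 11, 9 and 9. In these 4 chains 1 peak held most of the sum, and most of the others were at the level of the usual distal peak. The same held in Dazap1, a gene for an RNA-binding protein, with 112 of a sum of 168, and in Gucy2g, a guanylyl cyclase gene, with 125 of 139.

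The second shape was a long run of several tall peaks. The chain with the most members, 14, lay 13918 bp from Arhgef19, a gene for a guanine nucleotide exchange factor (chr4:141271542-141291958). Its pileups were 59, 13, 10, 16, 45, 13, 8, 20, 6, 14, 25, 10, 9 and 17, a sum of 265 over 19874 bp. At a −log10 q of at least 5 its last part was a chain of its own (chr4:141286694-141291958). That part held 4 peaks and was named for Epha2, 13427 bp away. The longest chain spanned 26192 bp, 100865 bp from Tomm20, a gene for a mitochondrial import receptor (chr8:126826380-126853049), with pileups of 9, 10, 15, 33, 13, 24, 13, 11, 30, 8, 11 and 8. In Shb, an adaptor of tyrosine kinase receptors (chr4:45487601-45511298), 11 peaks had 21, 13, 35, 7, 9, 17, 9, 11, 13, 8 and 34 over 22663 bp. The chain 58780 bp from Nfe2l2, which encodes the oxidative stress factor NRF2, had 30, 11, 13, 10, 27, 18 and 21. With only peaks of −log10 q of at least 5 kept, what is left of this chain is named for Agps, 59212 bp away. In each of these 4 chains, peaks above 20 fragments were separated by lower ones over many kb. Runs of this length were also found in Ptprf, a receptor tyrosine phosphatase gene (8 peaks, sum 182, highest 67), and, with lower peaks, in Adgrg1, an adhesion G protein-coupled receptor gene (9 peaks, sum 97, highest 18), and Unk (9 peaks, sum 105, highest 19).

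The third was 1 chain with a high input. It lay on chromosome 2 (98662190 to 98667418) and had the largest sum of all, 513 (interval 470 to 559), from pileups of 164, 71 and 278. Its folds were only 2.81, 1.69 and 4.11, and the local background was 57.8, 41.6 and 66.9 fragments where the median chain had 1.03. The nearest gene, Lrrc4c, was 1035459 bp away and the nearest H3K4me3 peak 2960827 bp away. The chains next in median background, Tmem267 at 3.43 and Bmp1 at 2.08, were far closer to the usual level and had sums of 70 and 33. The part of the background in these sums was not tested.

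Among AT2 genes, 5 of 28 were named for a chain (17.9%, interval 6.06 to 36.9%), against 2.83% of all protein-coding genes, and 6 had a chain within 50 kb, against 7.33%. Their summed pileups had a median of 65, where all chains had 40, and none of these chains lay inside its gene. The chain with the largest sum, 119 (interval 98.6 to 142), was 69394 bp from Slc34a2, the apical phosphate transporter of AT2 cells (chr5:52975328-52984613). Its 5 peaks had pileups of 11, 9, 57, 24 and 18 and the highest had a fold of 25.8. Lpcat1, the acyltransferase that makes the main surfactant phospholipid, had 6 peaks of 30, 10, 27, 7, 10 and 20 fragments 23973 bp away (chr13:73443065-73454148). Sftpb, which encodes surfactant protein B, had 9, 48 and 8, 11100 bp away (chr6:72290479-72297676), so 1 peak with a fold of 26.0 held most of the signal. Cebpa, a transcription factor of AT2 maturation, had 12, 34 and 11 fragments 23373 bp away (chr7:35143875-35150027). Scd1, a fatty acid desaturase, had 12, 7 and 36 fragments 14890 bp away. All 5 genes carried H3K4me3, as did 26 of the 28 on the list. Of all protein-coding genes with H3K4me3, 3.09% were named for a chain. The gene lists, here and below, were chosen with earlier results of these data known, so their shares are descriptions.

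The lists of markers of other lung cells are short and their intervals wide. Of 23 AT1 (flat alveolar) genes 3 were named (13.0%, interval 2.78 to 33.6%), against 2.83% of all protein-coding genes. They were Emp2, a membrane protein gene with pileups of 7, 13, 9, 23 and 7 inside it, Gprc5a and Vegfa, with sums of 59, 26 and 36. Of 20 endothelial genes 1 was named, the ETS factor Erg, whose chain 17499 bp away had 17, 7 and 9. Of 18 mesenchymal genes it was Pdgfra, a growth factor receptor with a sum of 37 inside the gene, and of 18 airway and basal genes it was Sox2. Both shares were 5.56% (interval 0.141 to 27.3%). Of 20 leukocyte genes 0 were named and 0 had a chain within 50 kb, which leaves room for a share of up to 16.8%. H3K4me3 marked 17 of the AT1 genes, 2 of the endothelial, 1 of the mesenchymal, 5 of the airway and basal and 5 of the leukocyte genes. Erg, Pdgfra and Sox2 were unmarked.

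Of 39 transcription factors of the lung epithelium 6 were named (15.4%, interval 5.86 to 30.5%), against 2.83% of all protein-coding genes. They were named through 8 chains with a median sum of 32: Cebpa, Foxp4, Lef1, Sox2, Tbx4 and Tead1. Tead1, a partner of YAP in the Hippo pathway, had chains with sums of 37 and 26 and Foxp4, a forkhead factor, 1 with 33, all inside the gene.

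Chains were also found at genes of epithelial contacts. Of 42 junction and keratin genes 9 were named (21.4%, interval 10.3 to 36.8%), against 2.83% of all protein-coding genes. Among the 9, whose chains had a median sum of 48, were Cdh1, Col4a2, Dsg2, Jup, Krt18, Lama5, Pard6b and Pkp3. Krt18, a keratin of simple epithelia, had 9, 79 and 11 fragments 11812 bp away, with a fold of 39.2 for the middle peak. Col4a2, a basement membrane collagen gene, had a sum of 84 with 54 in the highest peak. In Cdh1, which encodes E-cadherin, 5 peaks gave a sum of 52 with no more than 13 in any of them.

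In the TGF-beta, BMP, Wnt and Notch list 6 of 26 were named (23.1%, interval 8.97 to 43.6%), against 2.83% of all protein-coding genes. Their 8 chains had a median sum of 37.5. Wnt7b, a ligand of the lung epithelium, had 58, 16 and 8 fragments 30148 bp away and a fold of 24.0. Among receptors, Lrp5, a Wnt coreceptor, had chains with sums of 71 and 25, and Notch2 had 1 with 46, all inside the gene. Tcf7l1, a transcription factor at the end of the Wnt pathway, had 50 and 27. Notch1 and Smad6, an inhibitory SMAD, were the other members.

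Genes upstream of ETV5, from FGF and EGF receptors to ERK, were named at a share of 2.86%. Those of MAPK feedback and ETS response were named at 8.33%, against 2.83% of all protein-coding genes. Of 36 genes of MAPK feedback and ETS response 3 were named (8.33%, interval 1.75 to 22.5%). Errfi1, an inhibitor of EGF receptor signalling, had chains 28618 and 72195 bp away, with pileups of 24, 11, 15, 36 and 9 in the nearer (sum 95) and 8, 7, 12, 24 and 8 in the farther (sum 59). Ccnd1, the cyclin D1 gene, had a sum of 49 at 89892 bp, and Ier3, an immediate early gene, had 23. Of 35 genes from FGF and EGF receptors to ERK 1 was named, Ksr1, a scaffold for RAF, MEK and ERK, with 17, 10 and 42 fragments inside the gene. Of 26 ETS family genes 2 were named, Erg and Etv2. In lipid and surfactant synthesis 2 of 36 were named, Lpcat1 and Scd1, which are also on the AT2 list. These 4 shares have intervals that include the 2.83% of all protein-coding genes. Counted within 50 kb of a chain, the FGF and EGF list had 4 genes and the lipid list 7, against 7.33% of all protein-coding genes.

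**Figure D3:**
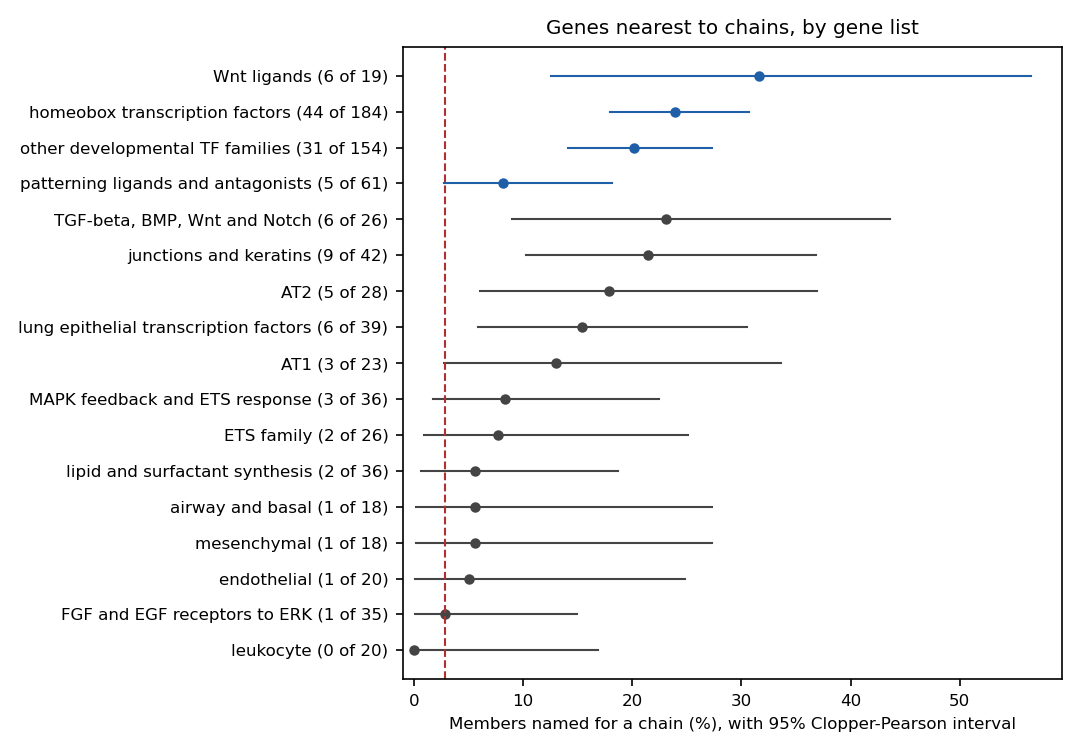
Share of the genes of each list that are named for a chain, in percent, with exact 95% Clopper-Pearson intervals and the counts in brackets. Dark grey marks lists chosen with earlier results of these data known, and blue marks families added after the data were seen. The dashed line is the 2.83% of all protein-coding genes. The lists range from 0 of 20 leukocyte genes to 6 of 19 Wnt ligands, and the intervals of most lists are wide.

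Many of the genes named for chains encode developmental transcription factors, most of them unmarked by H3K4me3 in these cells. Of 184 homeobox genes, which encode factors that set body pattern and cell type, 44 were named (23.9%, interval 17.9 to 30.7%), and 41 of the 44 carried no H3K4me3, as did 149 of all 184. The distance kept from H3K4me3 favours unmarked genes, so the unmarked state follows in part from the rule. Of 154 genes in other developmental families (GATA, SOX, FOX, TBX, RUNX and the like) 31 were named (20.1%, interval 14.1 to 27.3%). The families were defined after these names had been seen, so the shares describe the chains and support nothing further. The intervals count each gene as independent, though some, such as those of the Hox clusters, are neighbours. Among genes without H3K4me3, 27.5% of the 149 homeobox genes and 25.4% of the 114 other factors were named, against 2.54% of all unmarked protein-coding genes.

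Homeobox genes were named for 6.60% of chains (interval 4.83 to 8.75%), for 2.78% of pairs (interval 1.95 to 3.85%) and for 1.95% of isolated peaks (interval 1.63 to 2.31%). For the other developmental factors the shares were 4.95, 2.62 and 1.57%. The homeobox chains had a median of 4 peaks, a summed pileup of 43 and a highest fold of 8.02, and their highest peak held a median of 30.9% of the sum where it held 40% over all chains. In 30 of the 44 a summit lay within 1 kb of a start site, as it did in 178 of 653 chains of all kinds (27.3%). Among the 46 chains with a fold of at least 20, 1 was named for a gene of these families (2.17%, interval 0.0550 to 11.5%). The families were named for 15 of the 138 with a highest fold of 10 to 20 (10.9%) and for 61 of the 483 below that (12.6%).

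Nkx2-2, a factor of neural and pancreatic development, was that 1 chain, with 12, 24, 12, 8, 12, 11, 53 and 23 fragments over 13752 bp and a fold of 29.3. The others were flatter. Pax7, a muscle stem cell factor, had 8, 10, 9, 11, 14, 13, 20 and 9. Lmx1b, a factor of limb and midbrain development, had 9, 5, 13, 10, 15, 8, 10 and 14. Hoxa9, of the posterior part of the HoxA cluster, had 11, 16, 11, 9, 11, 11 and 16 over 17347 bp, with a chain on each side of it named for Hoxa5 and Hoxa11. HoxB held chains named for Hoxb3, Hoxb6 and Hoxb8, and HoxC for Hoxc5 and Hoxc10. In all of these Hox chains the highest pileup was 16 or less. Sox2, which marks the airway epithelium, had 8, 11, 6 and 10 beside the gene and 10, 12 and 7 in a second chain 11616 bp away. Of the other families, Tbx2 had a sum of 88, Skor1 84, Foxd3 78 and Ebf2 75.

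Wnt ligand genes followed the same pattern of position. Of 19, 6 were named (31.6%, interval 12.6 to 56.6%), against 2.83% of all protein-coding genes: Wnt1, Wnt6, Wnt7a, Wnt7b, Wnt10a and Wnt10b. In 5 of them, all but Wnt7b, a summit lay within 1 kb of a start site and the gene carried no H3K4me3. Wnt6 had a sum of 59, Wnt7a 45, Wnt10b 41, Wnt1 35 and Wnt10a 34. The chains of Wnt1 and Wnt10b lay within 50 kb of each other on chromosome 15, as did those of Wnt6 and Wnt10a on chromosome 1. The interval counts all 6 genes as independent.

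The start sites that held a chain summit were richer in CpG than start sites at large. Of the 32817 promoter windows of 300 bases (250 before and 50 after a start) 82 held a chain summit, those of 74 genes, 43 of them protein-coding. Their median was 16.5 CpG, against 7 in all windows, 16 in windows with an isolated distal summit, 19 in those with a pair and 25 in windows with a summit inside H3K4me3. The windows of chains had a median GC content of 62.0%, against 52.7% in all. Lmx1b, at 24 CpG, Lhx1 at 31, Six2 at 37, Skor1 at 46 and Runx3 at 45 were among the richer ones.

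**Figure D4:**
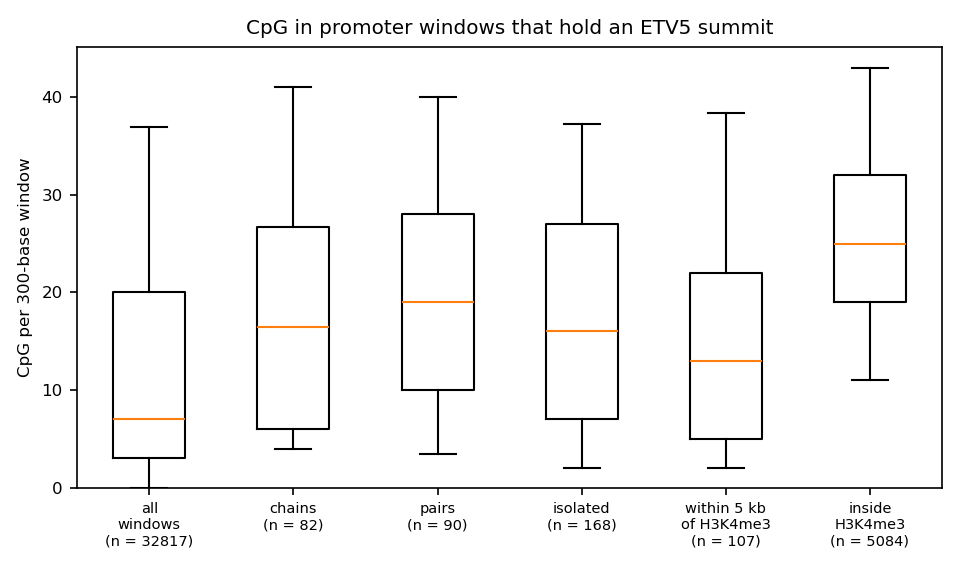
Number of CpG in each promoter window of 300 bases, for all windows and for those that hold an ETV5 summit of each group; boxes span the quartiles, the line is the median and whiskers reach from the 5th to the 95th percentile. Windows with a summit of a chain, a pair or an isolated peak have medians of 16 to 19, between all windows at 7 and those inside H3K4me3 at 25.

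The windows with a chain summit held a median of 3 copies of the ETS core, as did all windows, but a smaller share held any copy. GGAA or TTCC was found in 73 of the 82 (89.0%, interval 80.2 to 94.9%), against 96.0% of all windows. The longer CCGGAAGT, or its complement ACTTCCGG, was found in 1 of 82 (1.22%, interval 0.0309 to 6.61%), the Gm51643 window printed above, against 3.89% of all windows and 16.3% of those with a summit inside H3K4me3. A match or its absence describes only the letters of these windows.

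With the deposited threshold raised to a −log10 q of 10, which 18.0% of chain peaks reached, 13 chains of 39 peaks remained. The largest of them by summed pileup was that of Slc34a2, with 99 fragments in 3 peaks, followed by Tfcp2l1 with 85, Arf6 with 77 and Vav2 with 76. Tfcp2l1 encodes a transcription factor of epithelial development, Arf6 a small GTPase of membrane traffic and Vav2 a guanine nucleotide exchange factor. The ETV5 library held 5715049 tags, and how the number of peaks in a chain would change with depth was not tested.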

How the data were processed

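Each library's peaks came from MACS2 2.1.0.20150420 (per the file headers and the submitters' processing notes), at a q-value of 0.05, with at most 1 tag kept per position. Per the file headers 5715049 ETV5 tags were set against 27495486 input tags and 34907608 H3K4me3 tags against 44758677. The control of the ETV5 list carries another name in its header than the input sample in the labels. No source used here names the aligner. The pileup signal at each summit is the authors' count of overlapping ETV5 fragments, deposited unscaled, and all values were whole. Each peak's −log10 q-value, −log10 p-value and fold enrichment ratio were used as the authors deposited them. Local background was recovered from pileup and fold, taking fold as the ratio of pileup to background with 1 added to each of these 2.

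Of 31165 deposited ETV5 peaks, 16 on other sequences were left out, and 15122 H3K4me3 peaks were used. Distance from H3K4me3 was measured between peak edges. The labels name mm9, but 66.1% of H3K4me3 summits lay within 1 kb of a GRCm38 start site, so positions are given as GRCm38. Genes and start sites came from the RefSeq tables of GRCm38.p6. That of start sites was not used for chromosome 18, which has 14 chains, so 653 chains have a distance to one. Where several genes held a summit the shortest was named. Steps were run in Python 3.11.15 with numpy 2.4.6, pandas 2.3.3, scipy 1.17.1 and matplotlib 3.10.9 and tested on simulated data.

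Members and gene lists were chosen with earlier results of these data known, and the members were chosen by the ETV5 peaks' own positions. Chains named are the 10 with the highest summed pileup, the 5 each with the most peaks, the longest span and the highest fold, the 3 with the highest median background, and up to 4 from each of 14 gene lists. Genes with several chains, the 4 added families, the strict-threshold chains and the printed start sites were chosen after values were seen. Some items that these rules name are not reported here. One name of the feedback list matched no gene of the table. Alternatives changed the gap, the H3K4me3 distance, the q-value threshold, the chain size and the rule for genes.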

Additional observations from a re-analysis of the deposited data

How the results depend on the processing

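Of 115 results under alternatives, 83 stayed within their counting error or, for counts, within 1.5 times the reported count, and 32 did not. With a gap of 10 kb there were 906 chains of 3662 peaks, within that limit. Counting peaks with the same start and end once changed no value, and those results are among the 83. The number of chains fell to 433 with a gap of 2.5 kb, 275 with at least 4 peaks, 201 at a −log10 q of at least 5 and 13 at 10, and the number of peaks to 1568, 1359, 702 and 39. The median span was 2609 bp with a gap of 2.5 kb, 7739.5 bp with 10 kb, 6099 bp with at least 4 peaks, 3966 bp at a −log10 q of 5 and 3916 bp at 10. The median summed pileup was 52 with at least 4 peaks and 47 and 57 at the stricter thresholds. The share inside a gene was 53.8% at a −log10 q of 10 and 78.4% with all annotated genes. The share whose named gene carries H3K4me3 was 52.6% when chains lay more than 10 kb from the mark, 53.8% at a −log10 q of 10 and 65.7% with a window of 5 kb. At a −log10 q of 10 the ratio of chain to isolated peaks was 0.943 for fold (interval 0.830 to 1.06), where it had been 1.01. For width it was 0.947 (interval 0.740 to 1.25), where it had been 1.15. Only 39 chain peaks remained at that threshold, and the cause was not tested. Counted within 50 kb of a chain, the lists gave 5 of 23 AT1, 2 of 20 endothelial, 4 of 35 FGF and EGF, 14 of 42 junction, 5 of 46 actin regulator and 7 of 36 lipid genes, against 7.33% of all protein-coding genes. The share of chains named for a homeobox gene, an added result, was 6.60% and became 11.6% with at least 4 peaks (interval 8.10 to 16.0%). At a −log10 q of 5 it was 11.4% (interval 7.39 to 16.7%). At 10 it was 15.4% of 13 chains, with an interval of 1.92 to 45.4% that includes 6.60%. Leaving out peaks with a background of at least 5, also added after the data were seen, left 666 chains.

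No paired analysis was possible because each antibody has 1 library and no result comes from a test. A pileup of 10, the median of chain peaks, has a large Poisson error, and how chains change when weak peaks are lost by chance was not tested. The nearest gene was used without evidence that it is the target, and no replicate was at hand to set beside the chains.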
